A study of Mus musculus with 12 samples.

Results

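A set of 10 genes of fibroblast growth factor (FGF) signalling was described, taken by gene name from the 56350 genes of the count table. They were 6 ligand genes (Fgf1, Fgf2, Fgf7, Fgf10, Fgf18 and Fgf21) and 4 receptor genes (Fgfr1, Fgfr2, Fgfr3 and Fgfrl1), and each name matched a single row. Of these 10 genes, 8 passed the filter on low counts, while Fgf10 and Fgf21 did not. Most of the ligands are paracrine, but FGF21 is known as an endocrine hormone.

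RNAseq was performed on MPC2 cells, a conditionally immortalized clone of mouse mesenchymal progenitors, in 4 conditions with 3 libraries each. Undifferentiated MSCs were kept at 33 °C, and osteocytes were obtained by 3 weeks of osteogenic culture at 37 °C. Each cell type received DMSO vehicle or 50 µmol/L FG-4592 (Roxadustat), an inhibitor of the HIF prolyl hydroxylases, for 48 hours. Temperature, medium and time in culture changed together with differentiation and cannot be told apart from it. Vehicle and FG-4592 share these conditions in a cell type. All 12 libraries come from the same clone, and the labels do not say whether the replicates were separate cultures, so that the p-values measure only the spread between these libraries. In bulk RNA, fewer cells of a type and less RNA per cell cannot be told apart.

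Paracrine FGFs are secreted proteins that act near their source. They bind heparan sulfate on the cell surface together with a receptor tyrosine kinase, and the activated receptor signals through adaptors to the RAS and MAP kinase cascade, which induces its own feedback inhibitors. In bone, FGF receptors are known for roles in the growth plate, in osteoblasts and in osteocytes.

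The promoters of 3 receptors and ligands that were higher in osteocytes are shown, since FG-4592 stabilizes HIF transcription factors, whose binding core is ACGTG or GCGTG. Each sequence holds 250 bases before and 50 bases after a RefSeq start site (GRCm38.p6, the sequence of mm10), read 5′ to 3′ on the strand of the gene, and capitals mark the cores found on either strand (CACGT and CACGC are cores of the opposite strand). These are the windows of Fgfr2 (chr7:130266759-130267058, minus strand), Fgfr3 (chr5:33721474-33721773, plus strand, the upstream of its 2 windows) and Fgf18 (chr11:33147351-33147650, minus strand).
Fgfr2: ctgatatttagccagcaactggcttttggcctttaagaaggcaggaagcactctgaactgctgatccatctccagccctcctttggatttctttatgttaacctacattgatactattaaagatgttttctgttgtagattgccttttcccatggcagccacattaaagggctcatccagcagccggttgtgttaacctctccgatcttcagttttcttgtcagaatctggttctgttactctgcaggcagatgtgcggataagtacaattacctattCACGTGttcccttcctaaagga
Fgfr3: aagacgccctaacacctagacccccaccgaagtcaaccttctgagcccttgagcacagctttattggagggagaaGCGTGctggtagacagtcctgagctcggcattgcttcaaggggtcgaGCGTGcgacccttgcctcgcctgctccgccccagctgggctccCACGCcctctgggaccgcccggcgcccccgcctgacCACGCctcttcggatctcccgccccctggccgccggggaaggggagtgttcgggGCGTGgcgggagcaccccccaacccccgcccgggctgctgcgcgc
Fgf18: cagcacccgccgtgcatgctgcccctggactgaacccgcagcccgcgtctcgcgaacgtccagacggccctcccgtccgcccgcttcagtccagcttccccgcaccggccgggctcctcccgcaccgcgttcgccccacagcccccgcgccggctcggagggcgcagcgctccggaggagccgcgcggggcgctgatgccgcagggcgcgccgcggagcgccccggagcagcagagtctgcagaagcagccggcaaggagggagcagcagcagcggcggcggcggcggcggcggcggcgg

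The Fgfr2 window held a single palindrome, CACGTG, which is read as a core on both strands and begins 29 bases after the start site. The start site of this window lies 545 bases upstream of the nearest exon start in the deposited gene model. The upstream Fgfr3 window held 5 cores, and its other window held 1. No core was found in the Fgf18 window. RefSeq windows were found for 8 of the 10 genes (Fgf1 and Fgfr1 were not matched), and 7 of their 9 windows held a core, against 43.8% of the 32851 windows of all genes. A match describes the letters of the window only.

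Library totals ranged from 52829185 to 68108470 counts, and 3 counts, up to which a count of 0 leaves room, corresponded to 0.0447 to 0.0545 CPM (counts scaled by the TMM-normalized library size). Such floors cover counting error only. Differences were tested in edgeR (quasi-likelihood test) on 16484 genes (those above 10 counts in 3 or more libraries). A gene "rose" or "fell" at a false discovery rate (FDR) under 0.05, and passed both cutoffs where the absolute log2 fold change also exceeded 1. For 3 libraries a side, the smallest two-sided p that an exact permutation test of any gene allows is 0.1, so that the tests rest on the spread estimated across genes. The labelled cell types were checked against markers: Dmp1 and Phex were higher in osteocytes in both treatments, whereas Sost had no count in any library and Mepe and Pdpn had at most 2 counts. Phex and Dmp1 fell with FG-4592 in osteocytes, Phex from 57.6 ± 6.32 to 2.83 ± 0.871 CPM (log2 fold change -4.35, FDR 7.98e-11) and Dmp1 from 11.2 ± 2.30 to 2.06 ± 0.582 CPM (-2.44, FDR 2.12e-05, SD, n = 3, edgeR).

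With FG-4592, the FGF receptors of MSCs changed most through Fgfr2, which fell to 0.203 of its vehicle level (a log2 fold change of -2.30, or -3.52 with an even share of the reads of the overlapping gene Ctbp2 taken off), while Fgfr1 rose and Fgf7 fell by less. Of the 8 genes tested in MSCs, 3 passed the FDR cutoff (1 higher and 2 lower), against 38.1% of all genes tested. None was higher past both cutoffs, against 4.12% of all genes, and 1 (Fgfr2) was lower past both, against 5.17%. The vehicle and FG-4592 libraries did not overlap for the same number, 3, against 50.5% of all genes.

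In osteocytes, Fgf1 rose 2.54-fold, Fgfr1 rose 1.46-fold and Fgfrl1 rose 1.15-fold, Fgf2 fell, and Fgfr2 did not pass the test. There, 4 of the 8 passed the FDR cutoff (3 higher and 1 lower), against 43.8% of all genes. A single gene (Fgf1) was higher past both cutoffs, against 6.25% of all genes, and 0 were lower past both, against 4.26%. The libraries did not overlap for 5 genes, against 51.8% of all genes.

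**Figure D1:**
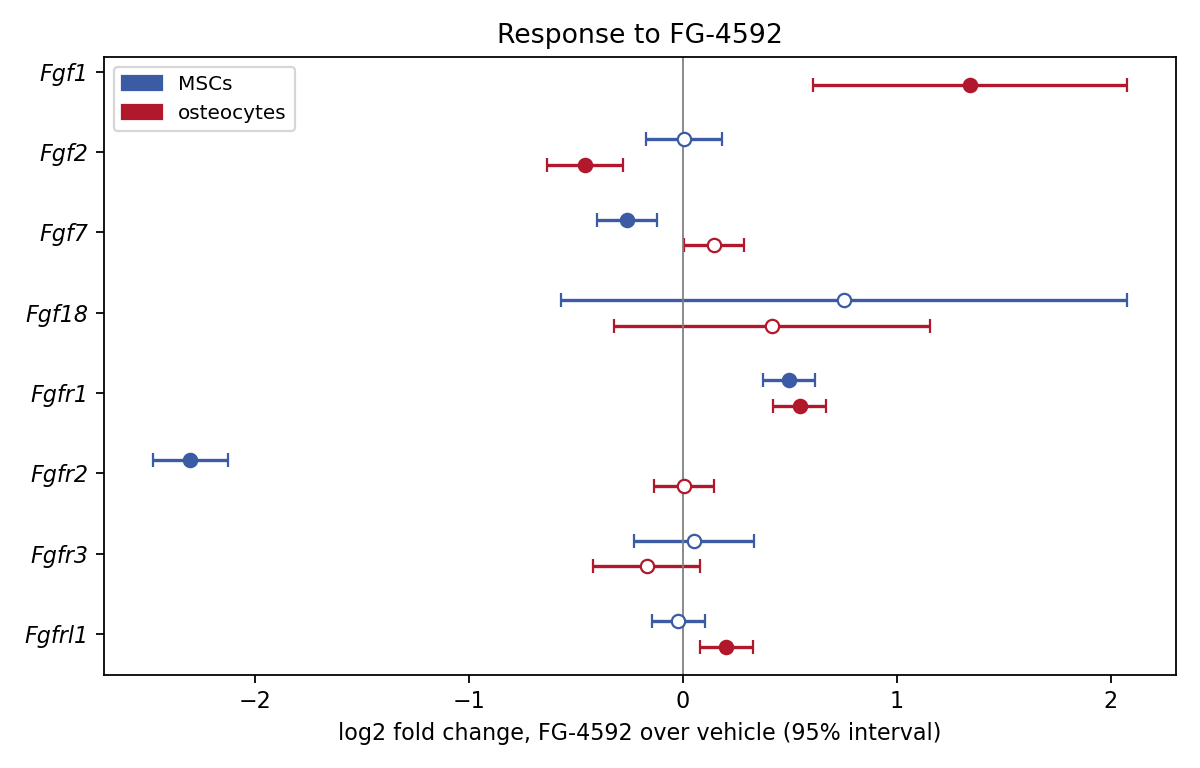
Log2 fold change (x axis) of each tested gene with FG-4592 over vehicle in MSCs (blue) and osteocytes (red), with 95% intervals from the edgeR fit; filled points passed an FDR of 0.05 and open points did not. Fgfr2 stands at -2.30 in MSCs (-3.52 with the even share of Ctbp2 taken off, not drawn) and near 0 in osteocytes, Fgfr1 lies to the right of 0 in both, and Fgf1 is not drawn in MSCs, where it had at most 1 count a library.

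Between osteocytes and MSCs, Fgf18 and Fgfr2 differed most among the genes counted in both. Both were higher in osteocytes, and Fgf18 had few counts in MSCs (1, 18 and 3 in vehicle, 5, 14 and 21 with FG-4592). Fgf1 passed the filter on low counts through its osteocyte libraries alone, which favours a difference. It is left out of the counts of this comparison. In vehicle, the other 7 genes passed the FDR cutoff (6 higher and 1 lower in osteocytes), against 51% of all genes. Past both cutoffs, 3 were higher in osteocytes (Fgf18, Fgfr2 and Fgfr3), against 9.83% of all genes, and 0 were lower, against 6.08%. The libraries of the cell types did not overlap for 7, against 56.9% of all genes. In FG-4592, 5 of these 7 passed the FDR cutoff, against 55.8% of all genes, 3 were higher past both cutoffs, against 12.6%, and 0 were lower past both, against 5.64%. The libraries did not overlap for 6, against 64.1% of all genes. The comparisons share libraries, so their values are given side by side and were not compared with each other.

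**Figure D2:**
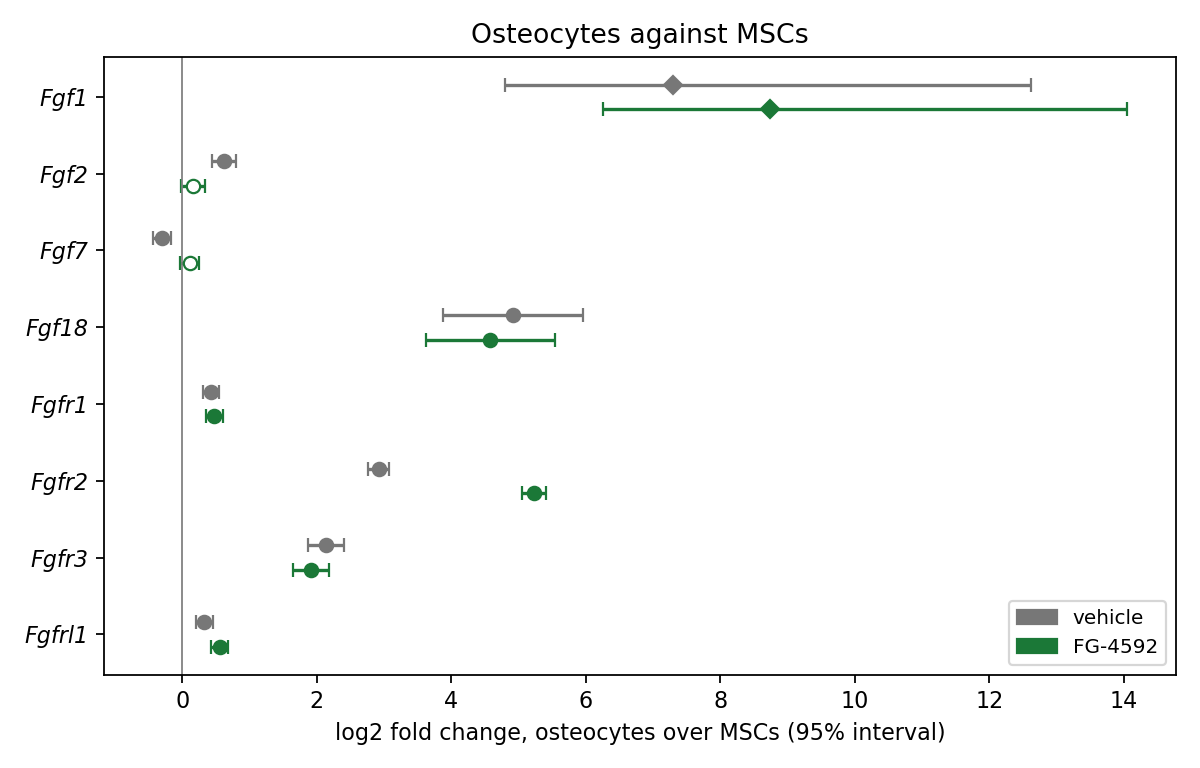
Log2 fold change (x axis) of each tested gene in osteocytes over MSCs, in vehicle (grey) and in FG-4592 (green); circles are edgeR estimates with 95% intervals, filled where the FDR was under 0.05, and diamonds (Fgf1) are ratios of summed counts with exact 95% counting intervals. Fgf18, Fgfr2 and Fgfr3 lie above 1 in both treatments, as does Fgf1, which passed the filter through its osteocyte libraries alone. Fgf7 in vehicle is the only filled point below 0.

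The response to FG-4592 itself differed between the cell types for 3 of the 8 genes (Fgfr2, Fgf7 and Fgf2), by an interaction contrast in the same fit, against 24.3% of all genes. Past both cutoffs, the response of 1 (Fgfr2) was higher in osteocytes, against 3.94% of all genes, and 0 were lower, against 1.07%.

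**Figure D3:**
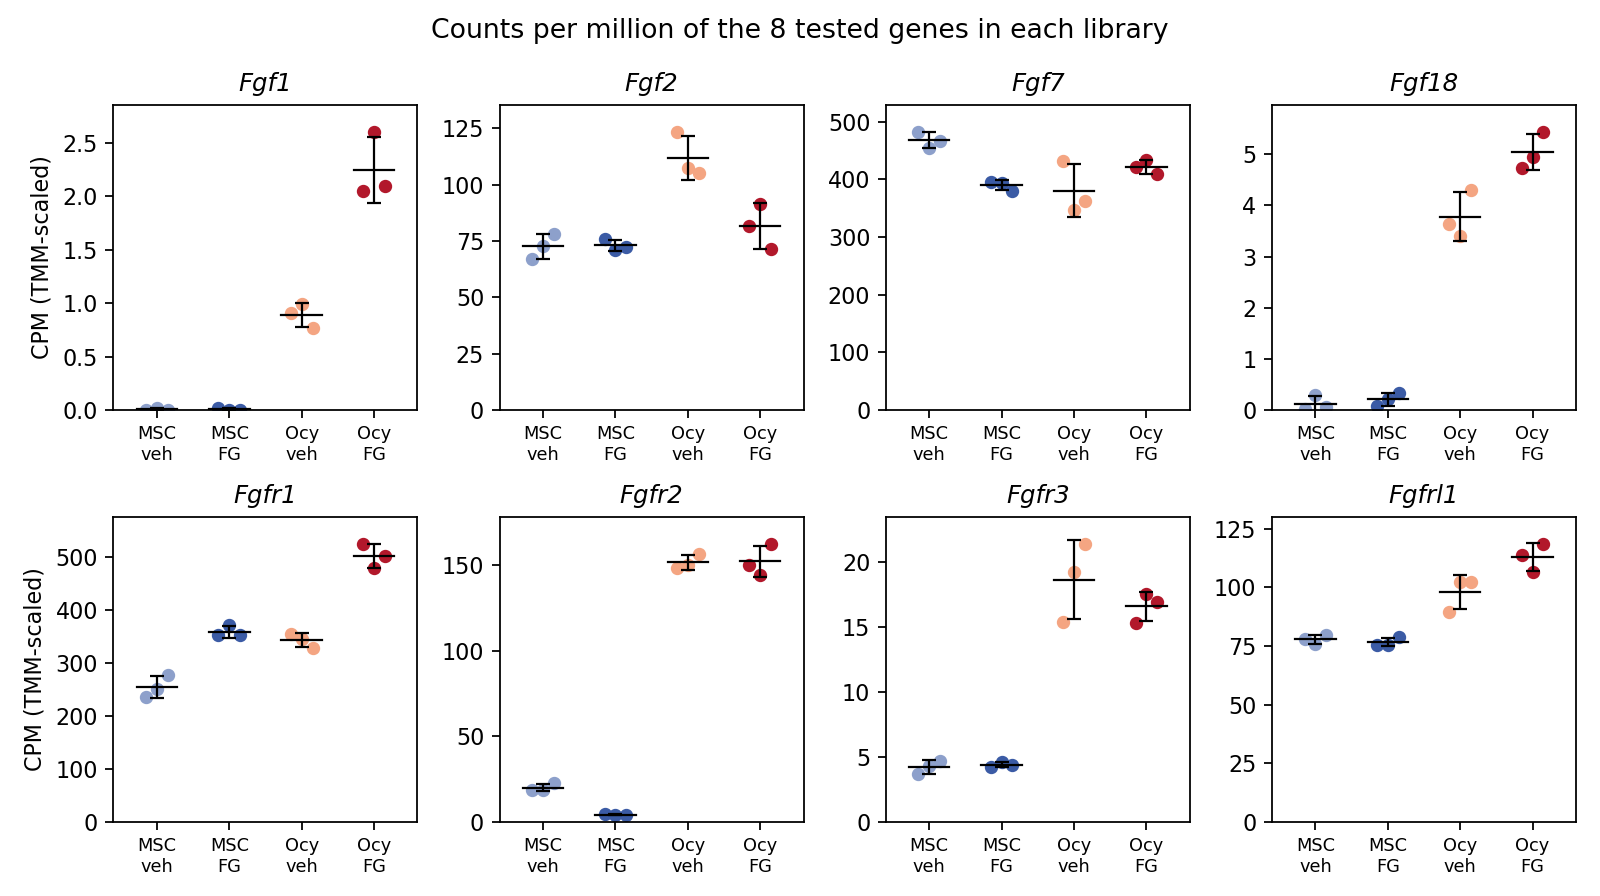
CPM (y axis, from 0, a separate scale in each panel) of the 8 tested genes in each of the 3 libraries per condition (points), with the mean and SD (bars); veh is vehicle, FG is FG-4592 and Ocy is osteocytes. Fgfr2 lay between 3.87 and 4.40 CPM in FG-4592-treated MSCs (any reads of Ctbp2 included), below every other library, and Fgf1 was near 0 in all MSC libraries.

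Levels were compared between genes only per length, as CPM per kilobase of merged exons (FPKM-like values). Fgf7, known as keratinocyte growth factor, was the most abundant of the 10 transcripts per length in each condition, at 143.9 ± 4.30 (SD, n = 3) in MSCs with vehicle and 120.1 ± 2.704 with FG-4592, and at 117 ± 14.1 in osteocytes with vehicle and 129.7 ± 3.77 with FG-4592. Its libraries lay above those of every other gene of the set. In vehicle-treated MSCs the order per length continued with Fgfrl1 (27.9 ± 0.695) and Fgfr1 (25.8 ± 2.06), whose libraries overlapped, then Fgf2 (10.7 ± 0.815), Fgfr2 (1.94 ± 0.205), Fgfr3 (0.590 ± 0.0709), Fgf18 and Fgf1. The order differed in FG-4592-treated MSCs, where Fgfr3 (0.613 ± 0.0264 per length) lay above Fgfr2 (0.394 ± 0.0278). In vehicle-treated osteocytes Fgfrl1 (35.2 ± 2.65) and Fgfr1 (34.8 ± 1.35) again overlapped, followed by Fgf2 (16.5 ± 1.44) and Fgfr2 (14.7 ± 0.406), and then by Fgf18 (3.18 ± 0.400) and Fgfr3 (2.60 ± 0.426), which overlapped. In FG-4592-treated osteocytes Fgfr2 (14.8 ± 0.880) lay above Fgf2 (12.0 ± 1.50). The merged exon length can exceed that of the transcript present, which lowers such values.

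Of the ligands, Fgf7 (chr2:126034658-126091185, mm10), a mesenchymal factor known to act on epithelial forms of FGFR2, stood at 482, 454 and 467 CPM in vehicle-treated MSCs and at 396, 394 and 380.0 CPM with FG-4592. The treated libraries lay below all vehicle libraries, and Fgf7 fell by 0.26 on the log2 scale (SE 0.0656, FDR 0.00464). In osteocytes the values were 432, 346 and 362 CPM in vehicle and 422, 433 and 409 CPM with FG-4592, so that the groups overlapped. The log2 fold change there was 0.15 (SE 0.0656, FDR 0.0827), and without osteocyte vehicle replicate 1, the highest vehicle library, it was 0.23 (FDR 0.000759). The responses differed by 0.41 on the log2 scale, osteocytes minus MSCs (SE 0.0928, FDR 0.00413). Vehicle-treated osteocytes held less Fgf7 than vehicle-treated MSCs (log2 fold change -0.30, SE 0.0656, FDR 0.00125). With FG-4592 the difference was 0.11 (SE 0.0656, FDR 0.165), although the libraries did not overlap, and it passed the cutoff without osteocyte vehicle replicate 1, whose removal changes the estimated spread (0.10, FDR 0.0439).

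Fgf2, basic FGF, a broadly acting ligand for mesenchymal cells (chr3:37348346-37410108), had 67.0, 72.7 and 78.0 CPM in vehicle-treated MSCs and 75.7, 71.0 and 72.2 CPM in FG-4592-treated MSCs. These groups overlapped (log2 fold change 0.01, 95% interval -0.17 to 0.19, FDR 0.96). In osteocytes the vehicle libraries stood at 123, 108 and 105 CPM and the FG-4592 libraries at 81.6, 91.6 and 71.2 CPM, all of which were lower. Fgf2 fell by 0.46 there (SE 0.0834, FDR 0.000278). The difference between the responses was -0.47 on the log2 scale (SE 0.118, FDR 0.00852). In vehicle, Fgf2 was 1.54-fold higher in osteocytes than in MSCs (SE of the log2 value 0.0837, FDR 1.09e-05). With FG-4592 this difference was 0.16 on the log2 scale (SE 0.0836, FDR 0.119), and it passed the cutoff without osteocyte FG-4592 replicate 3, the lowest of its group (0.25, FDR 0.016). Fgf2 shares 640 exonic bases with Nudt6 on the opposite strand, whose counts, if spread evenly, would amount to at most 1.68% of those of Fgf2.

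Fgf1, acidic FGF, a ligand for all of the FGF receptors, was detected in osteocytes. In MSCs the counts were 0, 1 and 0 in vehicle and 1, 0 and 0 with FG-4592, at or under the floor in all 6 libraries, so that no fold is given for its response there or for the difference between responses. Osteocytes held 60, 55 and 47 counts in vehicle (0.904, 0.989 and 0.764 CPM) and 133, 159 and 127 counts with FG-4592 (2.05, 2.60 and 2.10 CPM). All treated libraries lay above all vehicle libraries, and Fgf1 rose by 1.34 on the log2 scale (SE 0.345, FDR 0.00459). Summed over 3 libraries, the ratio of osteocytes to MSCs was 158 in vehicle (162 counts against 1, exact 95% counting interval 27.9 to 6263) and 428 with FG-4592 (419 counts against 1, interval 76.4 to 16950). Fgf1 passed the filter through its osteocyte libraries alone, so these ratios describe the counts and test no difference. Such counting intervals cover counting error and not the spread between libraries. Per length Fgf1 remained the lowest of the 8 tested genes in osteocytes, at 0.162 ± 0.0207 in vehicle and 0.411 ± 0.0560 with FG-4592 (SD, n = 3).

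Fgf18, a ligand known for its roles in cartilage and bone growth (chr11:33117430-33147400), had 1, 18 and 3 counts in vehicle-treated MSCs and 5, 14 and 21 counts in FG-4592-treated MSCs. The groups overlapped and the log2 fold change was 0.75 with a wide interval, from -0.57 to 2.08 (FDR 0.379). MSC vehicle replicate 2 decided this value: without it the remaining counts of 1 and 3 are at the floor, and Fgf18 passed both cutoffs as higher with FG-4592 in MSCs and as lower in the difference between responses, so that each of these counts of genes went from 0 to 1. In osteocytes the counts were 241, 189 and 265 in vehicle and 308, 303 and 329 with FG-4592, or 3.63, 3.40 and 4.31 CPM against 4.74, 4.95 and 5.43 CPM. These libraries did not overlap, yet the difference of 0.42 on the log2 scale did not pass the test (SE 0.347, FDR 0.368), and with the 6 osteocyte libraries fitted alone it did (0.42, FDR 0.0468). Between cell types the rise was large, 30.2-fold in vehicle (log2 fold change 4.92, SE 0.491, FDR 4.18e-07) and 23.9-fold in FG-4592 (4.58, SE 0.452, FDR 2.7e-07). The same library decided the size in vehicle: without MSC vehicle replicate 2, the ratio of summed counts was 112 (695 counts against 4, exact 95% counting interval 43.7 to 413.5), against 30.7 with it. This interval, too, leaves out the spread between libraries.

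The other ligands were not detectable at this depth or nearly so. Fgf10, a ligand of epithelial FGFR2 forms, had 0 counts in 11 of the libraries and 3 counts in MSC FG-4592 replicate 2. Fgf21 had 0 counts in all 12 libraries, which allows at most 0.0545 CPM in a library.

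Of the receptors, Fgfr1, the main FGF receptor of mesenchymal cells (chr8:25513654-25575718), rose with FG-4592 in both cell types. In MSCs it went from 236, 251 and 276 CPM to 353, 372 and 352 CPM, with no overlap, and the log2 fold change was 0.50 (SE 0.0579, FDR 3.84e-06). In osteocytes it went from 355, 346 and 329 CPM to 524, 480 and 501 CPM, again with no overlap (0.55, SE 0.0578, FDR 9.98e-07). The difference between these responses was 0.05 on the log2 scale, with a 95% interval of -0.12 to 0.22 (FDR 0.716). Osteocytes held more Fgfr1 than MSCs in vehicle (log2 fold change 0.43, SE 0.0579, FDR 1.1e-05) and in FG-4592 (0.48, SE 0.0578, FDR 2.54e-06).

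Fgfr2 (ENSMUSG00000030849.18), whose splice forms bind different ligands and cannot be separated in gene counts, had 1035, 1127 and 1430 counts in vehicle-treated MSCs and 262, 264 and 248 counts in FG-4592-treated MSCs. This corresponded to 18.8, 18.8 and 22.5 CPM against 4.40, 3.93 and 3.87 CPM, with no overlap. Fgfr2 fell by 2.30 on the log2 scale (SE 0.0828, FDR 2.52e-12). In osteocytes it stood at 148, 150.2 and 156 CPM in vehicle and at 150.0, 145 and 162 CPM with FG-4592, and the groups overlapped. The log2 fold change there was 0.01, with a 95% interval of -0.14 to 0.15 (FDR 0.956). The difference between the responses was 2.31 on the log2 scale (SE 0.106, FDR 4.64e-10). Osteocytes exceeded MSCs 7.57-fold in vehicle (log2 fold change 2.92, SE 0.0732, FDR 1.75e-14) and 37.5-fold in FG-4592 (5.23, SE 0.0852, FDR 9.83e-17).

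The Fgfr2 gene model reaches beyond its own exons at chr7:130162451-130266263, to 2 exons of Ctbp2, a transcriptional corepressor gene, at chr7:133081757-133081860 and chr7:133123141-133123350, 314 bases on the same strand. Read pairs on them were counted for both genes. If the 2945 to 3370 counts of Ctbp2 in FG-4592-treated MSCs were spread evenly over its exons, 149 to 170 of them would lie on the shared bases, up to 66.9% of the Fgfr2 count of a library. The same share was at most 13.6% in vehicle-treated MSCs, 1.39% in vehicle-treated osteocytes and 1.38% in FG-4592-treated osteocytes. With these counts taken from Fgfr2, its log2 fold change was -3.52 in MSCs, 6.63 between osteocytes and MSCs in FG-4592 and 3.53 for the difference between responses, an alternative chosen after seeing the data. How the reads of Ctbp2 lie on its exons was not tested, so the level of Fgfr2 in FG-4592-treated MSCs is uncertain.

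Fgfr3, a receptor known for restraining cartilage growth (chr5:33721674-33737068), stood at 3.69, 4.28 and 4.70 CPM in vehicle-treated MSCs and at 4.20, 4.57 and 4.39 CPM in FG-4592-treated MSCs. These groups overlapped (log2 fold change 0.05, 95% interval -0.23 to 0.33, FDR 0.792). The osteocyte libraries were all higher, at 15.4, 19.2 and 21.4 CPM in vehicle and 15.3, 17.5 and 16.9 CPM with FG-4592. The treatment effect in osteocytes was -0.17 on the log2 scale (95% interval -0.42 to 0.08, FDR 0.275), and it was -0.31 (FDR 0.0311) without osteocyte vehicle replicate 1, the lowest vehicle library. Osteocytes exceeded MSCs 4.41-fold in vehicle (log2 fold change 2.14, SE 0.128, FDR 8.14e-10) and 3.78-fold in FG-4592 (1.92, SE 0.127, FDR 2.08e-09).

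Fgfrl1 encodes a receptor-like protein that lacks the kinase domain (chr5:108692382-108706924). In MSCs it stood at 78.0, 75.7 and 79.5 CPM in vehicle and 75.6, 75.6 and 78.8 CPM with FG-4592, which overlapped (log2 fold change -0.02, 95% interval -0.14 to 0.10, FDR 0.82). The osteocyte values were 89.5, 102 and 102 CPM in vehicle and 114, 106 and 118 CPM with FG-4592, without overlap, and Fgfrl1 rose by 0.20 (SE 0.0577, FDR 0.00866). This call was lost with library size alone as the scaling (0.11, FDR 0.165) and without osteocyte vehicle replicate 1 (0.12, FDR 0.0715). The difference between the responses, 0.23 (SE 0.0818, FDR 0.0569), passed the cutoff without osteocyte vehicle replicate 3 (0.26, FDR 0.0432) and without osteocyte FG-4592 replicate 2 (0.26, FDR 0.0388). Fgfrl1 was higher in osteocytes than in MSCs in vehicle (log2 fold change 0.33, SE 0.058, FDR 0.000154) and in FG-4592 (0.56, SE 0.0579, FDR 4.82e-07).

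The make-up of the kinase receptors was compared per length. Fgfr1 made up 91.1 ± 0.246% (SD, n = 3) of the summed per-length level of Fgfr1, Fgfr2 and Fgfr3 in vehicle-treated MSCs and 97.3 ± 0.0599% in FG-4592-treated MSCs, where Fgfr2 went from 6.85 ± 0.264% to 1.05 ± 0.0921%. In osteocytes the share of Fgfr1 was 66.8 ± 1.90% in vehicle and 74.8 ± 1.19% with FG-4592, and that of Fgfr2 was 28.2 ± 1.08% and 21.7 ± 1.01%. Fgfr3 took 2.08 ± 0.102%, 1.64 ± 0.0390%, 5.01 ± 0.865% and 3.42 ± 0.347% in the same order of conditions. The libraries of the 4 conditions did not overlap in the share of any of these receptors. The summed level per length was 28.3 ± 2.32 with vehicle and 37.4 ± 1.15 with FG-4592 in MSCs, and 52.0 ± 0.551 and 67.9 ± 2.50 in osteocytes. These shares were described without a test, and those of Fgfr2 include any reads of Ctbp2. The shares of a library depend on each other. In osteocytes Fgfr2 per length was 14.7 in vehicle and 14.8 with FG-4592, while Fgfr1 was 34.8 and 50.8.

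**Figure D4:**
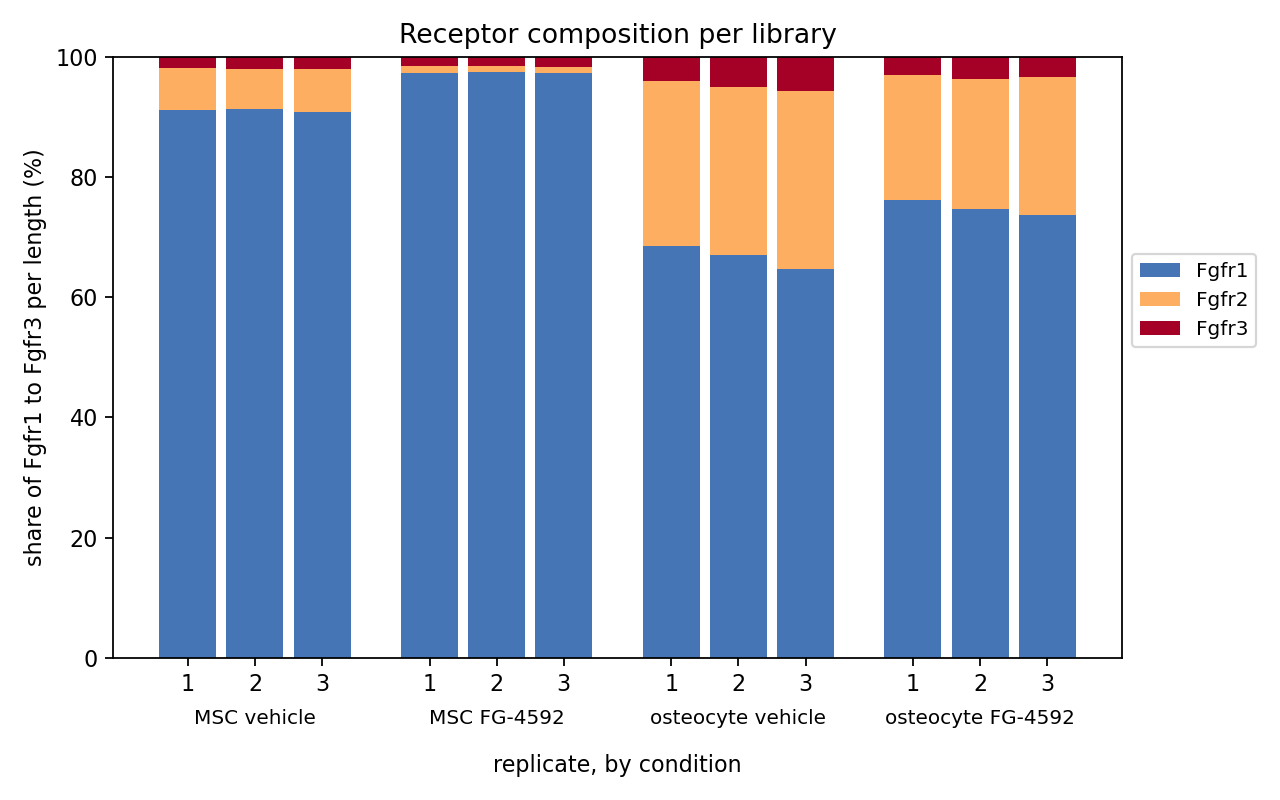
Share (y axis, %) of Fgfr1, Fgfr2 and Fgfr3 in their summed level per length, 1 bar for each library, by condition and replicate. Fgfr2 (orange) takes about 1.05% in FG-4592-treated MSCs and between 20.8% and 29.5% in osteocytes.

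Fgfr2 was the receptor with the widest range of condition means. Across the 12 libraries and over 12152 genes (mean of 100 counts or more in the highest condition), its log2 CPM correlated most with that of Abca1 (Pearson r 0.998), Kng1 (0.998) and Adarb1 (0.997). The points share the separation of the cell types, and the values are descriptive. No ligand is treated in this way, since the MSC libraries of Fgf1, at 0 or 1 count, are at the floor.

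Other genes of the pathway were read from fixed lists. Of 12 other ligands, 2 were tested, Fgf17 and Fgf23. Fgf23, the phosphate-regulating hormone, had 5, 0 and 0 counts in vehicle-treated osteocytes and 125, 79 and 98 counts in FG-4592-treated osteocytes. It passed the filter on low counts through the FG-4592-treated osteocyte libraries alone. That filter favours a difference, so no test of Fgf23 is given. Fgf17 did not pass the test for FG-4592 in MSCs (-0.17, FDR 0.81). It was higher in osteocytes in vehicle (1.29, FDR 0.0209), a call lost without MSC vehicle replicate 1 (1.18, FDR 0.0669) or osteocyte vehicle replicate 3 (0.94, FDR 0.108), and in FG-4592 (1.55, FDR 0.00646). Of 4 intracellular FGF-homologous factors, 2 were tested, and Fgf11 was higher in osteocytes in vehicle (2.41, SE 0.244, FDR 4.9e-07) and in FG-4592 (3.63, SE 0.253, FDR 4.04e-09). Its response differed between cell types (1.22, FDR 0.0171), but not without MSC vehicle replicate 3 (0.85, FDR 0.0844). Of 5 other receptors and co-receptors, 3 were tested. Klb, the co-receptor for endocrine FGFs including FGF21, held 642, 647 and 665 counts in vehicle-treated osteocytes against 0, 0 and 2 in vehicle-treated MSCs, and passed the filter through its osteocyte libraries alone, with a ratio of 950.4 over the summed counts (exact 95% counting interval 263 to 7854). Its ligand Fgf21 had no count in these cells. Ncam1, a cell adhesion molecule that can bind FGF receptors, was 2.04-fold higher in osteocytes in vehicle (FDR 1.04e-10). Cdh2, the cadherin of the same list, was lower in osteocytes in vehicle (-0.53, FDR 1.03e-07) and in FG-4592 (-0.39, FDR 2.09e-06).

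Of 21 genes for heparan sulfate proteoglycans, their modifying enzymes and FGF-binding proteins, 18 were tested. With FG-4592, 7 rose and 4 fell in MSCs (median log2 fold change 0.07, against -0.05 over all genes tested), and 5 rose and 5 fell in osteocytes (0.02 against 0.00). In either direction these were 61.1% of the 18 in MSCs, against 38.1% of all genes, and 55.6% in osteocytes, against 43.8%. Sdc4, a cell-surface syndecan, rose in both, from 69.3 ± 4.95 to 306 ± 28.6 CPM in MSCs (2.14, FDR 6.75e-13) and from 73.9 ± 3.31 to 447 ± 6.10 CPM in osteocytes (2.60, FDR 5.18e-14). In osteocytes Sdc3 (1.36, FDR 2.99e-13) and the glypican Gpc6 (1.19, FDR 6.98e-12) also rose past both cutoffs. Sulf2, an extracellular sulfatase that trims heparan sulfate, fell by 1.63 in MSCs (FDR 6.22e-12) and by 0.59 in osteocytes (FDR 6e-07), and its relative Sulf1 fell by 1.05 in osteocytes (FDR 2.47e-06). Between osteocytes and MSCs in vehicle, 6 were higher and 7 lower (median 0.00 against -0.01), 72.2% against 51% of all genes, and Sulf2 (2.52, FDR 1.75e-14) and Sulf1 (1.94, FDR 2.22e-09) were higher past both cutoffs.

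Downstream of the receptors, all 20 adaptor and effector genes were tested. With FG-4592, 6 rose and 2 fell in MSCs (median 0.07), and 5 rose and 1 fell in osteocytes (median 0.02). These were 40.0% of the 20 in MSCs, against 38.1% of all genes, and 30.0% in osteocytes, against 43.8%. Map2k1, the kinase that activates ERK, rose past both cutoffs in each, from 78.1 ± 0.841 to 187 ± 5.89 CPM in MSCs (1.26, FDR 2.23e-12) and from 81.6 ± 1.29 to 166 ± 6.12 CPM in osteocytes (1.02, FDR 2.15e-11). In osteocytes its log2 fold change went down to 0.92 over the alternatives, under the cutoff of 1, while the FDR call was kept. In vehicle, 3 were higher and 7 lower in osteocytes than in MSCs (median -0.06), 50.0% against 51% of all genes. Of these, 0 passed both cutoffs, against 9.83% of all genes higher and 6.08% lower. In FG-4592, 6 were higher and 10 lower in osteocytes, 80.0% against 55.8% of all genes. The responses differed for 8 (2 higher and 6 lower in osteocytes), 40.0% against 24.3% of all genes.

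All 18 feedback inhibitors and transcriptional targets of the pathway were tested. The sprouty gene Spry4 passed the filter through its osteocyte libraries alone, with 9, 10 and 4 counts in vehicle-treated MSCs against 222, 154 and 151 in vehicle-treated osteocytes, and is left out of the counts between cell types. Of the other 17, 11 were higher and 2 lower in osteocytes than in MSCs in vehicle (median 0.41 against -0.01 over all genes), against 51% of all genes called in either direction. The ETS factor gene Etv1 (2.95, FDR 4.16e-05) and the MAP kinase phosphatase genes Dusp6 (2.39, FDR 9.38e-08) and Dusp4 (2.01, FDR 3.02e-11) were among the 4 higher past both cutoffs, against 9.83% of all genes. Spry3 was the 1 gene lower past both (-1.22, FDR 0.0024), against 6.08%. With a library left out it ranged from -1.49 to -0.96, so that it did not always pass both cutoffs. With FG-4592, 6 rose and 2 fell in MSCs (median 0.01), 44.4% against 38.1% of all genes, and Spry1 fell from 30.0 ± 1.70 to 14.0 ± 1.14 CPM (-1.09, FDR 1.35e-09). In osteocytes 6 rose and 5 fell (median 0.09), 61.1% against 43.8% of all genes. There, Flrt2, a membrane protein of the FGF pathway, fell by 1.17 (FDR 6.76e-09) and Dusp5 rose by 1.07 (FDR 2.13e-05). Spry4 fell by 1.26 (FDR 0.0117), a call lost without osteocyte FG-4592 replicate 2 (-1.01, FDR 0.0579) or 3 (-1.15, FDR 0.0502).

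Markers moved with the cell types and the treatments compared. The summed level of 7 adipocyte markers ranged from 304 to 327 CPM with vehicle and 208 to 222 CPM with FG-4592 in MSCs, and from 2300 to 3040 CPM and 2600 to 3030 CPM in osteocytes. Of these, 6 were tested, Cfd through its osteocyte libraries alone, and the other 5 were higher in osteocytes in vehicle, against 51% of all genes called in either direction, Adipoq and Plin1 included, while Lep had at most 3 counts. Summed chondrocyte markers (8 genes) ranged from 83.9 to 93.3, 148 to 164, 115 to 135 and 376 to 456 CPM in the same order, with Acan at no more than 3 counts. Sox9 and Col2a1 made up most of this sum, and of the 4 genes tested between osteocytes and MSCs in vehicle, 2 were higher (Col2a1, 0.771 ± 0.314 in MSCs and 62.7 ± 9.73 CPM in osteocytes, and Comp) and 2 lower (Sox9, 84.2 ± 4.34 and 51.7 ± 4.76 CPM, and Col10a1), against the same 51%. Osteoblast markers (7 genes), whose sum is mostly Col1a1 and Spp1, lay between 6130 and 9650 CPM in every library, but 4 of the 7 fell with FG-4592 in MSCs (Spp1 rose) and 5 in osteocytes, so that 71.4% passed the FDR cutoff in each, against 38.1% and 43.8% of all genes. Ibsp fell from 59.6 ± 4.48 to 3.43 ± 0.493 CPM in MSCs and from 35.6 ± 1.57 to 12.2 ± 4.91 CPM in osteocytes, and Alpl from 76.6 ± 7.14 to 19.2 ± 1.23 and from 61.0 ± 3.25 to 34.4 ± 6.45 CPM. Osteocyte markers (6 genes) summed to 1.69 to 3.13 CPM with vehicle and 0.375 to 0.772 CPM with FG-4592 in MSCs, and to 61.4 to 76.7 CPM and 6.06 to 7.00 CPM in osteocytes. Within this sum Dmp1 and Phex fell with FG-4592 in both cell types, while Fgf23 had more counts with FG-4592 in osteocytes. Endothelial markers (5 genes) summed to 1.50 to 1.98, 1.73 to 2.42, 1.55 to 3.18 and 2.73 to 3.80 CPM. Blood markers (6 genes) summed to 8.72 to 8.82, 2.69 to 4.30, 17.4 to 20.2 and 9.44 to 11.5 CPM in the order above, mostly through Lyz2, which fell with FG-4592 in MSCs (FDR 4.03e-08) and in osteocytes (-0.86, FDR 7.99e-05), while Ptprc had at most 9 counts. The part of these cells in the differences of the FGF ligands and receptors was not tested.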

How the data were processed

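RNAseq of 12 MPC2 libraries was used. Per the labels and the study's methods, STAR 2.7.2a aligned the read pairs (100 bases a read) to mm10, and featureCounts (Subread 1.6.2) assigned those with a unique position to Gencode genes, without strand and with a pair counted for each gene that it overlapped. The authors deposited these counts per gene without normalization, beside merged exon lengths. Library totals and floors are given in the report. Groups follow the labelled cell type and treatment.

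The members and the gene lists were chosen with earlier results of these data known. Counts were fitted in edgeR 4.0.16 under R 4.3.3 (TMM, quasi-likelihood test, a coefficient for each of 4 conditions, 8 residual degrees of freedom), with Benjamini-Hochberg adjustment over the 16484 genes tested. The fit was run on simulated counts with 200 genes changed by a large known fold. Per comparison, 186 to 193 of these were recovered and 0 to 8 other genes were called. Smaller changes and changes in genes of few counts were not simulated. Replicates of a condition differed by 10.5 to 40.3 times the sampling variance (chi-square per degree of freedom), so that none was a duplicate.

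All members were described. From each list, up to 4 genes per comparison were named, those with the largest change past both cutoffs and averaging 100 counts or more in the highest condition. For the receptor of widest range, the 3 genes with the highest Pearson r of log2 CPM (prior count 2) were named. The rule also named such genes for a ligand, Fgf1, which are left out because its MSC counts are at the floor. Values of these genes in further comparisons, of Fgf17, Cdh2, Spry3, Etv4 and Etv5, and of marker genes were added after they were seen. Promoters came from RefSeq. Alternatives were DESeq2 1.42.0, RLE factors, library size alone, no filter, filterByExpr, the replicate number as a block, only the 6 libraries compared, genes sharing exonic bases left out, and each library left out. Figures were drawn in Python 3.11.15. Reads, ATACseq and mouse data were not used here.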

Additional observations from a re-analysis of the deposited data

Results flagged for a closer look

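The response to FG-4592 differed between osteocytes and MSCs, by the interaction contrast in edgeR, for 3 of the genes. For Fgfr2 the log2 response was 2.31 higher in osteocytes (FDR 4.64e-10), with a fall in MSCs and no change past the test in osteocytes, and 3.53 with the even share of Ctbp2 taken off. For Fgf7 it was 0.41 higher in osteocytes (FDR 0.00413), and for Fgf2 it was -0.47 (FDR 0.00852), lower in osteocytes. In groups of 3 libraries, no single library was tested as an outlier.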

How the results depend on the processing

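Counts of members past both cutoffs, here with Fgf1 included between cell types, kept their value or a close one in 186 of 188 alternatives. The exceptions were the members higher with FG-4592 in MSCs and those lower in the difference between responses, which went from 0 to 1 (Fgf18) without MSC vehicle replicate 2 and ranged from 0 to 1 over the libraries left out. Of 695 alternatives for the log2 fold changes of single members, 660 kept direction and side of the cutoff, 2 lost the call (Fgfrl1 in osteocytes, given above) and 8 gained it. The 25 reversals were all of values that did not pass the test. Fgfr2 with FG-4592 in osteocytes was -0.0090 in DESeq2 and with RLE factors and -0.092 with library size alone. In MSCs, Fgf2 was -0.079 and Fgfr3 -0.032 with library size alone, Fgf2 was -0.00087 without a filter, and Fgfrl1 was 0.010 with only the 6 libraries compared and 0.020 with genes sharing exonic bases left out. With a library left out, the range was -0.021 to 0.095 for Fgf2, -0.0070 to 0.17 for Fgfr3 and -0.041 to 0.029 for Fgfrl1 in MSCs, -0.042 to 0.047 for Fgfr2 in osteocytes, and -0.69 to 0.14 for Fgf18 and -0.063 to 0.076 for Fgfr1 in the difference between responses. The range of Fgf18 and the 8 gained calls leave out MSC vehicle replicate 2, without which its MSC vehicle counts are at the floor and no fitted value is given. Fgf17 with FG-4592 in MSCs ranged from -0.74 to 0.16. The causes were not tested. Fgf7 in osteocytes passed the cutoff without a filter (0.15, FDR 0.0225).

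The replicate numbers did not pair the libraries (correlations of deviations from -0.0528 to 0.0543, and in 5 of 24 cases the closest library of another condition had the same number), and with the replicate block Fgfr2 fell by 2.30 in MSCs (FDR 6.69e-11), with no change in any call of a member. With library size alone the median gene fell by 0.13 in MSCs. For the pathway and marker genes named with a test, 1203 of 1220 alternatives kept direction and side of the FDR cutoff. The call was lost in 11 (Spry4, Fgf11 and Fgf17, given above, and Dusp6 with FG-4592 in osteocytes). It was gained in 4, all for Etv5 as lower with FG-4592 in MSCs. The cutoff of 1 was not part of this tally. Over the alternatives, Dusp5 with FG-4592 in osteocytes went down to 0.90 and Ncam1 between cell types in vehicle to 0.99. Sulf1 with FG-4592 in osteocytes went up to -0.97. Genes at a few counts a library, Fgf1 and Fgf18 in MSCs and Fgf10, are limited by depth.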

Other observations

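Within the list of feedback inhibitors and transcriptional targets, the ETS factor gene Etv5 was chosen after its values were seen. In MSCs its level was 23.8 ± 0.919 CPM in vehicle and 20.1 ± 2.98 CPM in FG-4592, and in osteocytes it was 31.1 ± 4.61 and 52.5 ± 2.49 CPM (SD, n = 3). It rose with FG-4592 in osteocytes (log2 fold change 0.76, edgeR FDR 2.17e-05), its response differed from that of MSCs by 1.00 (FDR 0.000162), and both calls were kept under every alternative run. In MSCs Etv5 did not pass the test (-0.24, FDR 0.0946), but it did with library size alone (FDR 0.0222), without a filter (FDR 0.0167), with the replicate block (FDR 0.0407) and without MSC FG-4592 replicate 1 (FDR 0.0312). Its relatives Etv1 and Etv4 did not pass the test with FG-4592 in osteocytes (-0.77, FDR 0.132 and -1.23, FDR 0.203).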
